A study of Rattus norvegicus with 10 samples.

Results

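The genes described here are 10 genes known to respond to glucocorticoids or to carry their signal: *Nr3c1*, *Fkbp5*, *Sgk1*, *Tsc22d3*, *Klf9*, *Mt1a*, *Mt2A*, *Nfkbia*, *Errfi1* and *Sult1a1*. A probe set, the group of short probes that measures a transcript on the array, was assigned to one of them when the platform annotation paired it with that single gene symbol. By this rule 9 of the 10 genes had 13 probe sets, out of 31099 probe sets on the array. *Mt1a*, named *Mt1* in the annotation, shared its probe set with other symbols, and no value is given for it. Each other gene is described by its brightest probe set, and all 9 of these passed the filter on low signals, which kept 15521 probe sets.

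The study compared control rats, given their full recorded food intake, with rats under calorie restriction (CR) of 5, 10, 20 or 30% of that intake, to ask how mild and moderate restriction alter gene expression in the brain. The animals were male Wistar rats, an outbred strain, 6 weeks old at the start, kept singly on AIN-93G diet and fasted for 16 h before sampling, controls included. RNA of 5 rats was pooled per group, from the hypothalamus area according to the methods and from brain according to the labels, and was measured on 1 Affymetrix rat array per group. The 5 arrays of 1 week of CR were used. The 1 month arrays were not, because their rows did not follow the probe set identifiers (correlation of log2 signals with the 1 week arrays 0.036 to 0.052 across probe sets, against 0.918 to 0.935 among the 1 month arrays).

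Glucocorticoids are steroid hormones released by the adrenal cortex under the drive of the hypothalamus and the pituitary, and fasting is a known stimulus of their release. They bind the glucocorticoid receptor, which is held in the cytoplasm by heat shock protein chaperones, moves to the nucleus and binds DNA at glucocorticoid response elements near its target genes. The targets include a co-chaperone that limits the response itself (*Fkbp5*), a protein of the anti-inflammatory action (*Tsc22d3*) and an inhibitor of NF-kB (*Nfkbia*). Others are a kinase of ion transport (*Sgk1*), a transcription factor of the brain (*Klf9*) and metal-binding metallothioneins. The metallothionein genes also answer to zinc through the metal response element. Hormone levels were not among the values used here.

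The promoters of the 10 genes (RefSeq, GRCr8 assembly, 250 bases before to 50 after each transcription start, 15 windows) were searched on both strands for these elements. The full palindrome of the glucocorticoid response element, AGAACA and TGTTCT with 3 bases between, was in 0 of the 15 windows and in 0.015% of all 33469 windows of that table. The half-site AGAACA was in 1 window, that of *Sult1a1*, and in 20.7% of all windows. The core of the metal response element, TGCACNC or TGCGCNC, was in 5 of the 15 windows and in 24.2% of all windows. The *Mt1a* window held 6 cores and the *Mt2A* window 4, and 0.039% and 0.439% of all windows held at least as many. The other windows with a core held 1 each. The *Mt2A* and *Sult1a1* sequences are shown because *Mt2A* had the largest CR difference and *Sult1a1* one of the steepest trends of the 9 genes. The capitals mark the metal response element cores in the first and the half-site in the second. A match is a description of these letters, and the search says nothing of elements farther from the start.
Mt2A, chr19:10838659-10838958, minus strand: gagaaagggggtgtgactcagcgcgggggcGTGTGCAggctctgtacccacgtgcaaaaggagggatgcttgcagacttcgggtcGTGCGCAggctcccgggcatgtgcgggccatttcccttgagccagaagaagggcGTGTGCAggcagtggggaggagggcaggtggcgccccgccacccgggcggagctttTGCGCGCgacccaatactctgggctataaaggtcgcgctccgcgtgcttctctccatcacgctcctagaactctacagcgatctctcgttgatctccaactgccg
Sult1a1, chr1:190706063-190706362, minus strand: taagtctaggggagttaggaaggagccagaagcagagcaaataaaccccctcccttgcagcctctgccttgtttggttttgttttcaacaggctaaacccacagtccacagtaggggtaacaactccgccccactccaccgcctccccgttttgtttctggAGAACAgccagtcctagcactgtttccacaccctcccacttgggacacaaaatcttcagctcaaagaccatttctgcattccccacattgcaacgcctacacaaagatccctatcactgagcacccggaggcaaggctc

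The values are MAS5 signals on a linear scale, which the authors had scaled to the same trimmed mean on each array. The control array differed most from the rest. Its correlation with the CR arrays over log2 signals was 0.852 to 0.874, against 0.912 to 0.922 among the CR arrays, and 24.0% of its probe sets had a signal under 10, against 11.7 to 14.4% on the CR arrays. Every difference from control rests on that array. The depth of such data is the number of arrays, 4 against 1, for which an exact permutation test cannot give a p under 0.2. The tests below are limma's, fitted over the 15521 probe sets with Benjamini-Hochberg adjustment, and the SD is that over the 4 CR arrays, which are 4 CR levels and not replicates of a dose. The arrays carried strong signal of neuronal, oligodendrocyte and hypothalamic marker genes, and the vasopressin gene *Avp* read 2847.2 to 3995.5. *Pomc*, a defining gene of arcuate neurons, read only 2.6 to 14.8 and did not pass the filter. The hypothalamic markers *Npy* and *Cartpt* read 806.8 to 2034.6 and 1972.9 to 3380.0. The signal of *Pomc* alone therefore does not show which neurons were in the pool. In a pool of tissue, fewer cells of a type and less RNA per cell cannot be told apart.

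After 1 week of CR, *Mt2A*, *Klf9* and *Fkbp5* were higher than control, by 2.57-, 1.58- and 1.56-fold. None of the 9 genes was lower by the test. The 3 higher genes of 9 stand against 2246 of 15521 probe sets called higher (14.5%), and the 0 lower ones against 1712 called lower (11.0%). The median log2 difference of the 9 genes was 0.22, and that of all tested probe sets 0.03. Only *Mt2A* was at least 1.5-fold above control on all 4 CR arrays, as were 12.4% of all tested probe sets.

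*Mt2A* encodes a metallothionein, a small protein that binds zinc and copper. Its signal was 342.0 on the control array and 806.9, 831.2, 893.9 and 1003.2 at 5, 10, 20 and 30% CR. All CR arrays were far above control, and the signal was higher at each further level. The log2 difference was 1.36 ± 0.14 (SD, n = 4 CR arrays), with a limma SE of 0.15 and an adjusted p of 3.91e-04. It passed under 13 of 13 alternative settings, with values from 0.93 to 1.45. Metallothionein genes are close copies of each other, so part of this signal may come from a relative. *Mt3*, the brain metallothionein, differed by 0.27 (limma adjusted p = 0.1368). Among 10 tested genes of metal handling, *Mt3* included, 1 was higher and 1 lower, against 14.5% and 11.0% of all tested probe sets. The higher one was the metal-sensing transcription factor *Mtf1* (0.62, limma adjusted p = 0.0146). The lower one was the zinc transporter gene *Slc39a7* (-0.62, limma adjusted p = 0.0409). Scaling to the array median left *Mtf1* at 0.18 and ended its call, and quantile normalization or cyclic loess ended that of *Slc39a7*.

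*Klf9*, a Krüppel-like transcription factor that glucocorticoids and thyroid hormone induce in neurons, read 814.5 on the control array and 1083.0, 1315.4, 1420.5 and 1338.9 at 5, 10, 20 and 30% CR. The CR arrays were all above control, with the lowest at 5%. Its log2 difference was 0.66 ± 0.17 (SD, n = 4), with a limma SE of 0.15 and an adjusted p of 0.0118. Its other probe sets were too dim to test and went opposite ways. One read 33.0 to 47.8 on the CR arrays and was lower on the control array, by 1.69 on the log2 scale. The other read 40.8 on the control array and 19.6 to 42.7 on the CR arrays. The call was lost without an intensity trend in the variance (adjusted p = 0.0732), with the mean of the 3 probe sets (0.61, adjusted p = 0.1419) and on scaling to the array median (0.22, adjusted p = 0.2964), a scaling that moved the median difference of all probe sets by -0.435. Of its relatives, *Klf3* was higher (0.81, limma adjusted p = 0.0158), and it was not called on median scaling (0.38, adjusted p = 0.1807).

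*Fkbp5* encodes a co-chaperone that lowers the receptor's affinity for the hormone and is itself induced by it. Its signal was 147.8 on the control array and 209.6, 238.9, 241.0 and 231.4 at 5, 10, 20 and 30% CR. The 4 CR values lay close together and did not overlap with control. The log2 difference was 0.64 ± 0.09 (SD, n = 4), with a limma SE of 0.19 and an adjusted p of 0.0347. A second, dimmer probe set read 60.7 on the control array and 98.7, 49.1, 71.9 and 85.1 at the 4 levels, which overlapped with control (0.28, limma adjusted p = 0.6700). The call of the brighter probe set was lost with the mean of both (0.46, adjusted p = 0.2304), on median scaling (0.20, adjusted p = 0.4548), and without the 10% array (adjusted p = 0.0644), the 20% array (0.0617) or the 30% array (0.0507). It therefore lay near the threshold.

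The receptor gene *Nr3c1* read 380.4 on the control array and 428.2, 350.0, 495.2 and 517.5 at 5, 10, 20 and 30% CR. Control lay among the CR values, and the log2 difference of 0.22 ± 0.25 (SD, n = 4) did not pass (limma adjusted p = 0.4834). Median scaling turned it to -0.22. Its second probe set was at 7.2 to 27.0 on the 5 arrays and too dim to test by itself. The mean of both probe sets differed by 0.85 (adjusted p = 0.0891). The mineralocorticoid receptor gene *Nr3c2*, whose protein binds the same hormone with higher affinity, differed by 0.25 (limma adjusted p = 0.4904).

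*Sult1a1*, a phenol sulfotransferase whose gene glucocorticoids induce in rat liver, read 464.2 on the control array and 572.7, 566.1, 692.2 and 953.2 at the 4 levels. Every CR array was above control, but by unequal amounts, and the mean log2 difference of 0.55 ± 0.35 (SD, n = 4) did not pass (limma adjusted p = 0.1363). *Errfi1*, a feedback inhibitor of EGF receptor signalling, read 338.5 on the control array and 199.8, 191.0, 230.3 and 277.1 at the 4 levels. *Nfkbia*, the inhibitor that holds NF-kB in the cytoplasm, read 251.4 on the control array and 153.0, 177.2, 165.1 and 237.6. Both genes were below control on all CR arrays, least so at 30% CR. Their log2 differences of -0.61 ± 0.24 and -0.48 ± 0.28 did not pass (limma adjusted p = 0.0774 and 0.2003). On median scaling both passed (-1.04 and -0.91), and *Errfi1* also passed without the 30% array (-0.71, adjusted p = 0.0292).

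**Figure D1:**
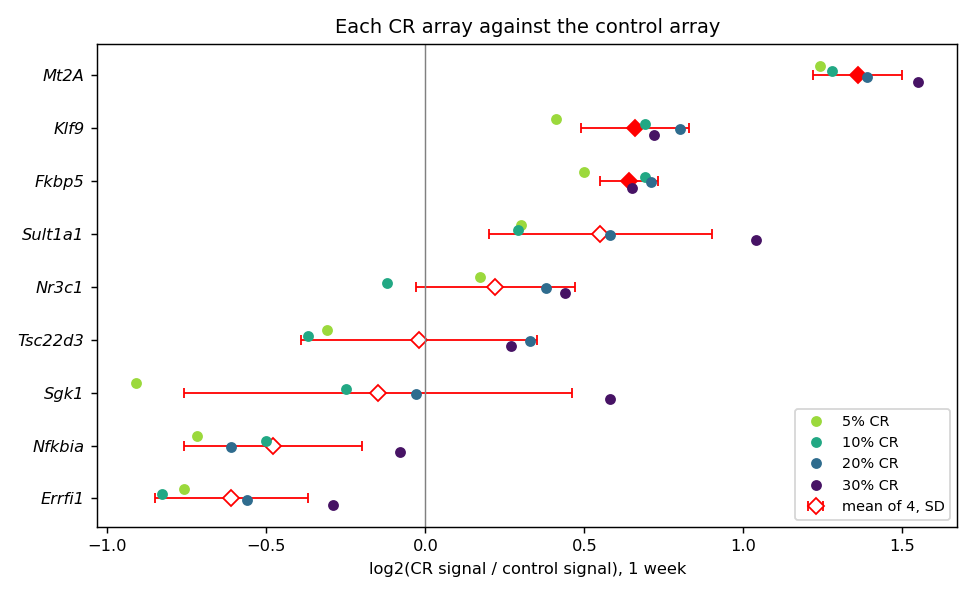
Log2 ratio of each CR array to the 1 week control array (x axis) for the 9 measured genes (y axis, sorted by mean). Circles are the 4 CR levels, diamonds their mean with the SD, filled where limma's adjusted p was under 0.05. *Mt2A*, *Klf9* and *Fkbp5* are filled, and for *Sgk1* and *Tsc22d3* the circles lie on both sides of 0.

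For *Sgk1* and *Tsc22d3* the mean of the CR arrays was close to control, and the levels lay on both sides of it. *Sgk1*, the serum- and glucocorticoid-regulated kinase, read 961.6 on the control array and 512.1, 807.5, 939.5 and 1436.3 at 5, 10, 20 and 30% CR. The 5% array was the lowest of the 5, the 20% array was near control, and the 30% array was the highest. Its mean log2 difference from control was -0.15 ± 0.61 (SD, n = 4; limma adjusted p = 0.8103), and the 30% array was 2.80-fold above the 5% array. *Tsc22d3*, also known as GILZ, a leucine zipper protein that carries part of the anti-inflammatory action of glucocorticoids, read 779.7 on the control array and 630.5, 604.0, 982.1 and 938.7 at the 4 levels. Both arrays of mild CR (5 and 10%) were below control and both of moderate CR (20 and 30%) above it. Its mean log2 difference was -0.02 ± 0.37 (SD, n = 4; limma adjusted p = 0.9691). On median scaling the mean differences were -0.59 for *Sgk1* and -0.45 for *Tsc22d3*, and neither passed (adjusted p = 0.2476 and 0.1795).

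The trend over CR level was therefore taken among the 4 CR arrays, without the control array, as the slope of log2 signal per 10 points of CR. All 9 genes had a positive slope, from 0.04 (*Fkbp5*) to 0.53 (*Sgk1*), as did 50.8% of all tested probe sets. The median slope was 0.21 for the 9 genes and 0.00 for all. No trend passed adjustment: limma called 0 of 15521 probe sets (0%), the lowest adjusted p of any was 0.452, and 743 had an unadjusted p under 0.05. Of these, 332 had a positive slope (2.14% of all tested), and they included 4 of the 9 genes: *Sgk1*, *Sult1a1*, *Tsc22d3* and *Errfi1*. The 9 genes were chosen with earlier results of these data known, so counts over them, here and below, are no test of the set. The genes were read on the same 4 arrays, so their slopes are not independent of each other.

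*Sgk1* had the second lowest slope p of the 15521 probe sets, with a slope of 0.53 (limma SE 0.077, adjusted p = 0.452), and its slope was the 51st highest. The exact permutation test over the 24 orders of the 4 arrays, too few for a small p, gave a two-sided p of 0.083. A signal that rises at each step, as in 3.68% of all tested probe sets, has the highest slope of its 24 orders. That p therefore adds nothing to the order of the *Sgk1* signals. *Sult1a1* had a slope of 0.30 and *Tsc22d3* one of 0.29, above the 95th percentile of all tested probe sets (0.23). *Errfi1* and *Nfkbia* followed at 0.21, *Nr3c1* at 0.17, *Mt2A* at 0.12 and *Klf9* at 0.11. The 30% array was at least 1.5-fold above the 5% array for *Sgk1* (2.80-fold), *Sult1a1* (1.66-fold) and *Nfkbia* (1.55-fold), and for 4.87% of all tested probe sets. *Tsc22d3* was just outside that limit at 1.49-fold.

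The order of the levels was less regular than the slopes. The signal of *Sgk1* and *Mt2A* was higher at each step from 5 to 30% CR, as was that of 3.68% of all tested probe sets. In 7 of the 9 genes both mild CR arrays were below both moderate ones, which held for 17.4% of all tested probe sets. The highest of the 4 arrays was that of 30% CR in 6 genes and that of 20% CR in *Tsc22d3*, *Klf9* and *Fkbp5*. None of the 9 genes had a lower signal at each step. Without the 5% array the slope of *Fkbp5* was -0.02 and 8 of the 9 slopes were positive. Without any other CR array all 9 were positive.

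**Figure D2:**
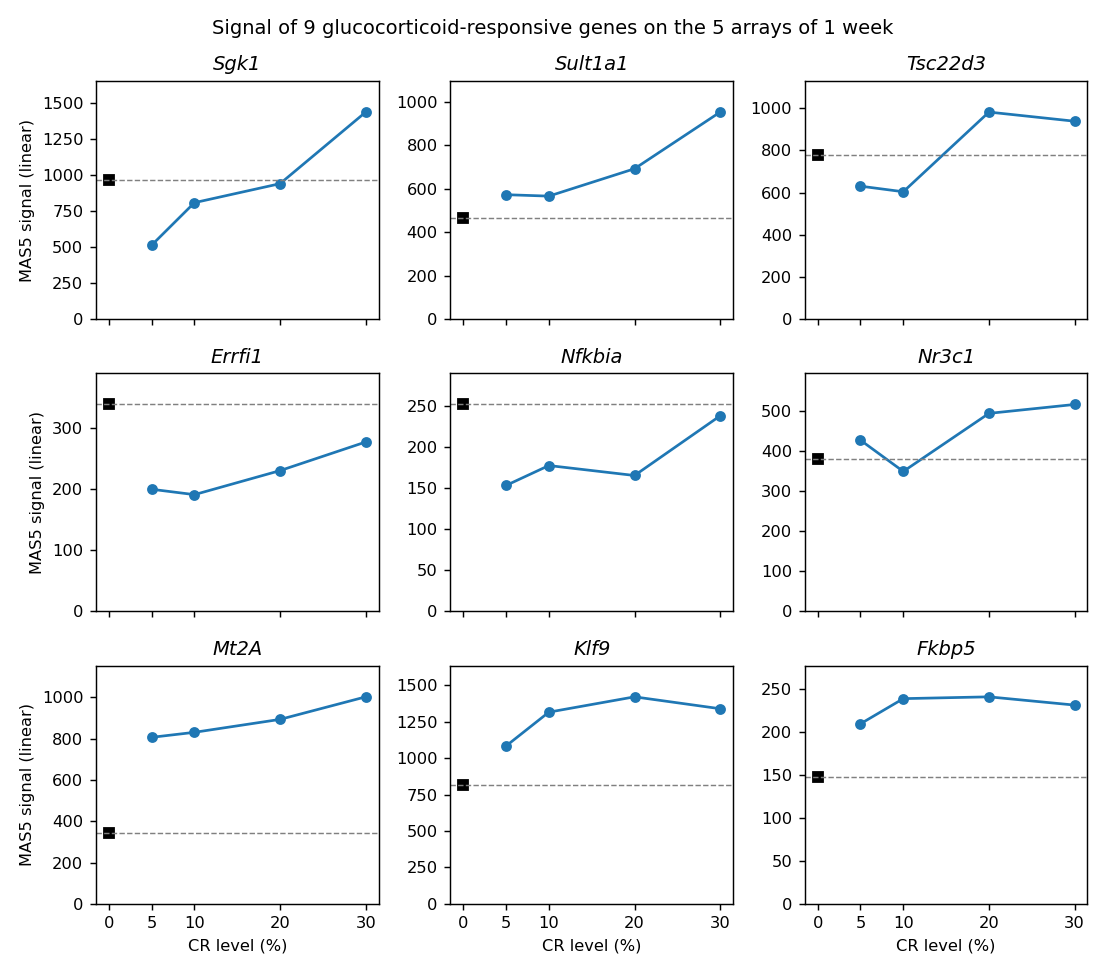
MAS5 signal (y axis, linear, from 0) of the 9 measured genes against CR level in percent (x axis), sorted by slope. Squares and dashed lines are the control array, circles the 4 CR arrays of 1 week, 1 pool of 5 rats each. *Sgk1* runs from 512.1 at 5% CR to 1436.3 at 30% CR and crosses the control level of 961.6, whereas *Mt2A* is above control at every level.

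Some measures of the arrays moved with CR level or stood apart on control. The share of probe sets with a signal under 10 was 11.7% at 5% CR and higher at each further level, up to 14.4% at 30% CR. The log2 ratio of the 3' to the 5' probe set of GAPDH, a sign of RNA integrity, was 0.19 on the control array and 0.51, 0.74, 0.79 and 0.40 at the 4 levels. That of beta-actin was 1.90 on the control array and 2.31, 2.80, 2.46 and 2.19. The poly-A spike-ins are control transcripts mixed into each RNA sample ahead of labelling. On the control array 12 of their 12 probe sets exceeded the CR mean, with a median log2 difference of 1.29, a size close to that of the *Mt2A* difference in the other direction. Genes described below were lower under CR by about as much, among them *Papss1* (-1.28), *Fkbp4* (-1.31), *Nfkb1* (-1.32), *Fkbp8* (-1.32) and *Hsd11b1* (-1.36). *Nfkbib* (1.26) went the other way, like *Mt2A*. The spike-ins added at hybridization differed by a median of -0.03. Of the 9 tested oligodendrocyte markers, 8 had a positive slope, and their summed signal was 26028.3 on the control array and 23752.8 to 25805.6 on the CR arrays. Against control 4 of the 9 were lower, the myelin genes *Mog* (-1.35), *Ugt8* (-1.36), *Mal* (-1.26) and *Opalin* (-0.64), and 0 were higher, while *Mbp* (0.07) did not pass. Median scaling called 8 lower, quantile normalization 6 and cyclic loess 4. Of all 15521 tested probe sets these scalings called 5024, 1311 and 1814 lower. Of the 9 tested astrocyte markers, 7 had a positive slope. The summed signal of all 10 on the array was 25155.8 on control and 23945.1 to 25154.8 on the CR arrays. Against control *Aldh1l1* (-0.89) and *Ntsr2* (-0.74) were lower and *Gja1* (0.40) was higher, and *Gfap* (-0.18) did not pass. *Gja1* was not called under any of the 3 other scalings and was at -0.04 on median scaling, which called 8 of the 9 lower. The summed signal of the 10 pituitary markers on the array was 1045.7 on control and 2209.9 to 2963.9 on the CR arrays. Most of it was that of *Cga*, at 877.4 on control and 1713.9 to 2332.9 on the CR arrays. The hormone genes *Prl* (0.6 to 29.8 on the 5 arrays) and *Gh1* (8.0 to 50.6) were too dim to test. Of the 10 markers, 3 could be tested, and all 3 were higher by the test, with positive slopes. The thyroid-stimulating hormone gene *Tshb* among them had a slope of 0.37. Of the 7 choroid plexus markers on the array 3 could be tested, and 2 were higher, among them the transthyretin gene *Ttr* (1.93, limma adjusted p = 0.0045). *Ttr* read 35.5 on control and 110.5 to 202.6 on the CR arrays. The markers too dim to test went both ways, *Kl* (-1.11) and *Aqp1* (-0.57) down, *Kcnj13* (2.43) and *Otx2* (1.23) up. Of the 9 endothelial markers 1 was higher and 1 lower, the tight junction gene *Cldn5* (-1.36, limma adjusted p = 6.43e-04). Of 9 tested neuronal markers 2 were higher and 2 lower, of 9 hypothalamic ones 2 and 1, and of 9 meningeal and fibroblast ones 1 and 1. Over all tested probe sets the shares were 14.5% and 11.0%. Median scaling gave 0 and 5, 1 and 3, and 0 and 7, against 1023 and 5024 of all 15521 tested probe sets. *Npy* (1.25) and *Cartpt* (0.64) were the higher hypothalamic ones and *Trh* (-1.09) the lower. Of 6 microglial markers 1 was higher and 0 lower, and of 3 blood markers 0 passed. The part of these measures in the values of the 9 genes, and of the genes described below, was not tested.

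Another 28 genes that glucocorticoids are known to induce were taken as a list, and 18 of them could be tested. This list and those below were chosen with earlier results of these data known, so counts over them are no test of the sets. Against control 0 of the 18 were higher and 2 were lower, with a median log2 difference of -0.11 (0.03 over all tested probe sets). The share called lower was that of all tested probe sets (11.0%), and 14.5% of these were called higher. The lower ones were *Rasd1*, a dexamethasone-induced Ras protein (-1.11, limma adjusted p = 0.0371), and *Ddit4*, an inhibitor of mTORC1 (-0.72, limma adjusted p = 0.0225). *Ddit4* read 697.2 on the control array and 405.5, 363.1, 419.7 and 522.2 at the 4 levels. The call of *Rasd1* was lost on quantile normalization (adjusted p = 0.0526). Median scaling called 7 of the 18 lower, and 5024 of all 15521 tested probe sets. *Dusp1*, a phosphatase of MAP kinases, and the clock gene *Per1* did not pass (-0.43 and -0.17).

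Over CR level, 14 of these 18 genes had a positive slope (50.8% of all tested probe sets), with a median of 0.09. The negative ones were *Cdkn1c*, *Txnip*, *Rasd1* and *Tgm2*. An unadjusted p under 0.05 was reached by 4 genes with a positive slope (2.14% of all tested probe sets) and by 0 with a negative one. They were *Pdk4*, *Bcl6*, *Fam107a* and *Mfsd2a*, and they are named after their values were seen. All 18 genes were read on the same 4 CR arrays as the genes described first, so these counts are no independent test of a trend. *Pdk4*, the kinase that shuts down pyruvate dehydrogenase in fasting, read 122.6 on the control array and 92.4, 122.3, 152.1 and 191.9 at the 4 levels, so that, like *Sgk1*, it was below control at 5% CR and above it at 30%. *Bcl6*, a transcriptional repressor, read 306.5 on control and 233.8, 243.7, 309.8 and 349.1, with the same order. The 30% array was at least 1.5-fold above the 5% array for 5 of the 18, and *Per1* and *Dusp1* were among them (4.87% of all tested probe sets). *Per1* read 67.5 at 5% CR, 128.6 at 30% CR and 101.6 on the control array.

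**Figure D3:**
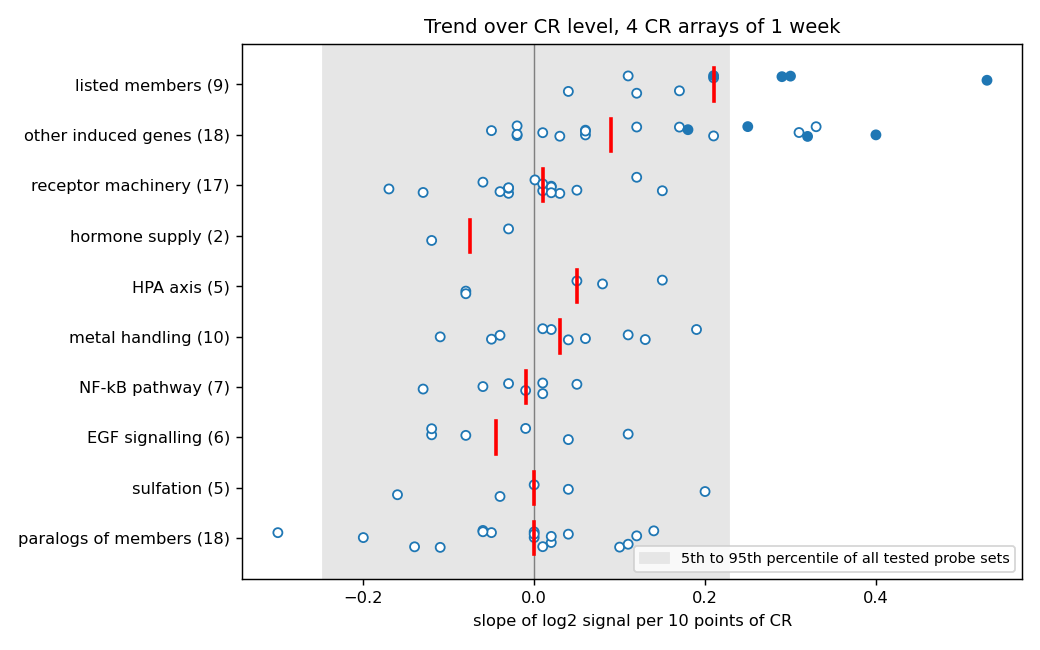
Slope of log2 signal per 10 points of CR over the 4 CR arrays of 1 week (x axis) for the 9 measured genes and for 9 lists of related genes (y axis, number of tested genes in brackets). Points are genes, filled where limma's unadjusted p was under 0.05, red bars medians, and the grey band spans the 5th to 95th percentile of all tested probe sets (-0.25 to 0.23). The filled points lie in the upper 2 rows, with medians of 0.21 and 0.09, and no trend passed adjustment. The genes and lists were chosen with earlier results of these data known.

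In the machinery that holds and serves the receptor, several chaperone genes were lower than control. Of 17 tested chaperones, receptors and cofactors 5 were lower (11.0% of all tested probe sets) and 1 was higher (14.5%), with a median of -0.34. Median scaling called 11 of the 17 lower and 0 higher, with a median of -0.78. Of all 15521 tested probe sets it called 5024 lower and 1023 higher. *Fkbp4*, the co-chaperone that competes with *Fkbp5* on the receptor complex and favours its transport to the nucleus, read 667.9 on control and 289.8, 274.0, 232.5 and 281.3 on the CR arrays, a log2 difference of -1.31 ± 0.14 (SD, n = 4; limma adjusted p = 9.53e-04). It was thus lower where *Fkbp5* was higher. *Stip1*, which links Hsp70 to Hsp90, was lower by the test (-0.83), as were the Hsp70 nucleotide exchange factor *Bag1* (-0.75) and the constitutive Hsp90 gene *Hsp90ab1* (-0.54), with limma adjusted p of 0.0020, 0.0082 and 0.0067. The Mediator subunit gene *Med1* was the higher one (0.90, limma adjusted p = 0.0450), a call lost on median scaling (0.46) and quantile normalization (0.93, adjusted p = 0.0550). The list had 10 of 17 positive slopes and none with an unadjusted p under 0.05.

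Of the genes that make or clear the active hormone, 2 could be tested. *Hsd11b1*, the enzyme that regenerates active glucocorticoid inside cells, read 522.7 on control and 230.5, 226.9, 163.5 and 201.3 at the 4 levels. All CR arrays were below 0.5 times the control signal, with a log2 difference of -1.36 ± 0.23 (SD, n = 4; limma adjusted p = 0.0024). Of 5 tested genes of the hypothalamus-pituitary-adrenal axis 0 passed in either direction. Of all tested probe sets 14.5% were called higher and 11.0% lower. The 5 genes included *Crh*, the releasing hormone gene of the axis (-0.31, limma adjusted p = 0.5822), and *Avp* (-0.12, limma adjusted p = 0.6102). On median scaling 2 of the 5 were lower, *Avp* (-0.56, adjusted p = 0.0138) and *Pcsk2*, a prohormone convertase gene (-1.20, adjusted p = 0.0125). That scaling called 5024 of all 15521 tested probe sets lower.

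In the NF-kB pathway, which *Nfkbia* inhibits, 3 of 7 tested genes were higher (14.5% of all tested probe sets) and 2 lower (11.0%). The subunit genes moved apart: *Nfkb1* was lower (-1.32, limma adjusted p = 0.0074) and *Rela* higher (0.86, limma adjusted p = 0.0120). The inhibitor gene *Nfkbib* (1.26, limma adjusted p = 0.0017) and the adaptor gene *Traf6* (0.93, limma adjusted p = 0.0143) were higher. Median scaling ended the calls of *Rela* and *Traf6*, and left that of *Nfkbib*. Of 6 tested partners of *Errfi1* in EGF signalling 0 passed (14.5% of all tested probe sets were higher and 11.0% lower). Of 5 tested sulfation genes beside *Sult1a1* 1 was lower (11.0% of all tested probe sets) and 0 higher (14.5%). It was *Papss1*, which makes the sulfate donor (-1.28, limma adjusted p = 8.10e-04). Median scaling called 3 of the 5 lower, and 5024 of all 15521 tested probe sets.

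Among 18 tested relatives of the 9 genes, 3 were higher and 3 lower, shares near those of all tested probe sets (14.5% and 11.0%). Median scaling gave 1 higher and 7 lower, against 1023 and 5024 of all 15521 tested probe sets. *Tsc22d2*, a relative of *Tsc22d3*, read 251.1 on control and 867.3 to 1336.3 on the CR arrays (2.09, limma adjusted p = 3.84e-04). The immunophilin genes *Fkbp8* (-1.32, limma adjusted p = 0.0045) and *Fkbp1b* (-1.05, limma adjusted p = 0.0255) were lower, as was *Fkbp1a* (-0.35, limma adjusted p = 0.0288), whereas *Fkbp2* was higher (0.36, limma adjusted p = 0.0255). *Fkbp2* was at -0.08 on median scaling and was not called there or on cyclic loess. *Fkbp1a* and *Fkbp2* are named after their values were seen. The relatives had 9 of 18 positive slopes, with a median of 0.00.

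**Figure D4:**
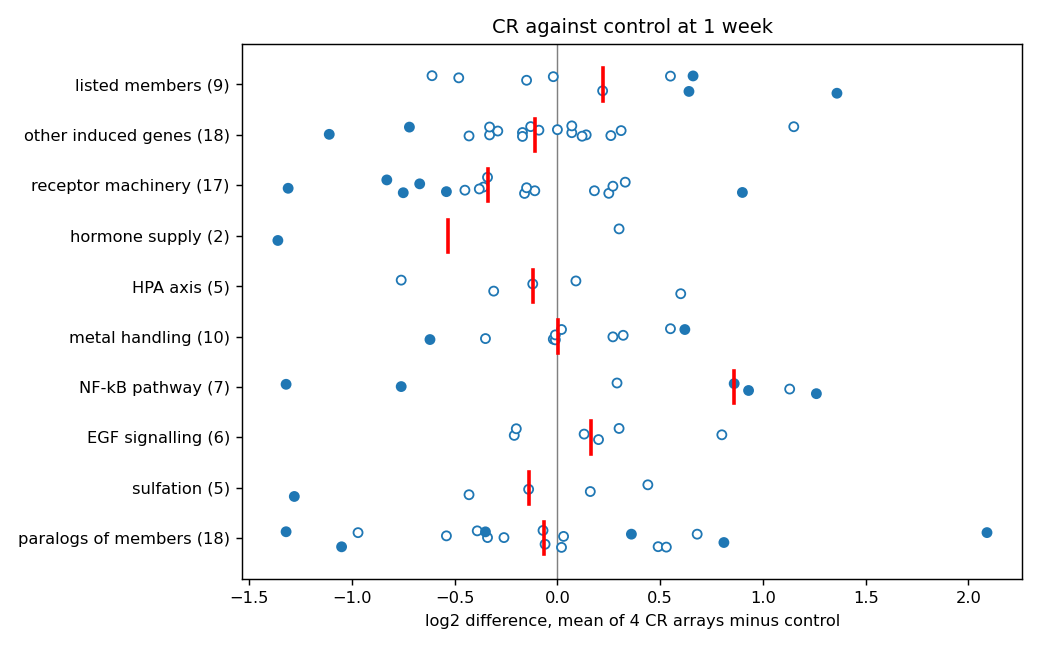
Mean log2 difference of the 4 CR arrays of 1 week from control (x axis) for the same lists (y axis, number of tested genes in brackets). Points are genes, filled where limma's adjusted p was under 0.05, and red bars are medians. The receptor machinery has a median of -0.34 with 5 genes called lower, and 3 of the 9 measured genes are called higher.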

How the data were processed

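RNA of 5 pooled rats per group was measured on Affymetrix Rat Genome arrays. The deposited values are signal intensity on a linear scale, made by the authors with MAS5 per the submitters' processing notes. MAS5 subtracts mismatch probe signal, which makes the log2 of dim probe sets noisy. Groups came from the labels. The 1 month columns and the authors' change calls were not used.

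Signals were taken as log2, with 4 values of 0 set to 0.1. After 57 control probe sets were left out, a probe set was kept when its log2 signal, averaged over the 5 arrays of 1 week, exceeded the 50th percentile. limma 3.58.1 in R 4.3.3 (lmFit and eBayes with an intensity trend) compared the 4 CR arrays with the control array, and fitted a slope over the 4 CR arrays, with Benjamini-Hochberg adjustment at 0.05. The script was tested on simulated data, in which the control array had the same spread as the CR arrays. That test therefore does not cover a control array that stands apart, as the one here did. p-values measure the spread between pools of different CR levels. Python 3.11.15 with pandas 2.3.3, numpy 2.4.6 and matplotlib 3.10.9 was used for counts and plots. Of the probe sets, 20832 had 1 symbol, 436 several and 9831 none. Each group had 1 array.

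The members and lists were chosen with earlier results of these data known. From each list up to 4 genes that passed against control were named, largest change first, and 16 genes whatever their result. *Hsp90aa1*, one of these, had no probe set with a single symbol. Alternatives were median, quantile and cyclic loess scaling, no filter or the 75th percentile, a pseudocount of 13.7, no intensity trend, robust eBayes, the mean of probe sets, leaving out each CR array, and the control as 0% in the trend. Slopes without each array and the comparison of 30% with 5% CR were added after the data were seen.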

Additional observations from a re-analysis of the deposited data

How the results depend on the processing

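Of the 3958 probe sets called against control, 2246 were higher and 1712 lower. Scaling to the array median gave 6047 (1023 higher and 5024 lower), and no filter gave 6685 (4943 higher and 1742 lower). Without an intensity trend there were 1731 higher and 1006 lower. With the mean of probe sets 1 of the 9 genes was called in place of 3. Among differences from control that did not pass, *Nr3c1* turned to -0.22 on median scaling, and *Tsc22d3* to 0.09 on quantile normalization and 0.01 on cyclic loess. Leaving out each CR array gave -0.40 to 0.10 for *Sgk1* and -0.14 to 0.10 for *Tsc22d3*, and for the slope of *Fkbp5* -0.023 to 0.117. With control taken as 0% CR the slope of *Errfi1* was -0.004. The cause was not tested. No paired analysis was possible because each group had 1 array. With 1 control array, its own spread could not be measured, and 24.0% of its signals were under 10.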
